A study of Mus musculus with 9 samples.

Results

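The cytosolic ribosomal protein genes are the genes whose protein products, together with ribosomal RNA, build the ribosome of the cytoplasm. They were chosen by symbol, as Rpl or Rps followed by a digit plus Rplp0, Rplp1, Rplp2 and Rpsa, leaving out kinases, binding proteins, the like-named paralogs Rpl7l1, Rpl22l1 and Rpl39l, and pseudogenes. A gene also needed at least 50 counts summed over the 9 libraries. This left 76 genes, 44 of the large and 32 of the small subunit, out of 89 symbols that fitted and 55401 annotated mouse genes. All 76 passed the filter on low counts and were tested among 16046 genes.

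RNA-seq was done on nuclei sorted from mouse cortex with NeuN, a protein of neuronal nuclei encoded by Rbfox3. The 3 groups had 3 libraries each. P301S Tau transgenic mice, which carry a mutant form of the microtubule protein tau, received the Cdk5i peptide, named for inhibition of the kinase Cdk5. A second group of P301S Tau transgenic mice received a scrambled peptide. Both peptides were injected into the peritoneum at 20 mg/kg every other day, and the animals were 7 to 9 months old. Wild-type mice, which the sample titles give as having no treatment, were the group without a peptide. The labels give neither the transgene's promoter nor the number of animals behind a library, and the p-values cover library-to-library spread, which may be partly technical. Scrambled peptide and wild type differ in both the transgene and the injections, and these cannot be told apart.

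Ribosomal proteins are made in near-equal amounts, 1 copy of most of them per ribosome, and their messengers are among the most abundant of a cell. Those messengers begin with a C followed by a run of pyrimidines, the terminal oligopyrimidine (TOP) motif, through which mTOR and the RNA-binding protein LARP1 regulate their translation. Neurons also translate in dendrites and axons, far from the nucleus. Nuclear libraries counted over whole genes hold unspliced and newly spliced RNA, so the values below are levels in sorted nuclei and not in whole cells. Mitochondrially encoded genes, a mark of cytoplasm carried over, took 0.0793% to 0.137% of counts. How much cytoplasmic messenger entered the values was not tested.

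Each library had 21584712 to 26715938 counts, of which the 76 genes took 0.0297% to 0.0430%. Rbfox3 stood at 1106 to 1558 CPM (counts per 1e+06 of the library size scaled by TMM), and the summed level of 6 neuron markers was 5736 to 6731 CPM in the Cdk5i group, 5693 to 6401 CPM in the scrambled group and 6048 to 6634 CPM in wild type. The 8 microglia markers summed to 3.31 to 3.93 CPM with Cdk5i, 3.74 to 6.15 CPM with scrambled peptide, and wild type had 2.95 to 4.55 CPM, and the 6 astrocyte markers to 14 to 16.4 CPM with Cdk5i, 12.9 to 15.7 CPM with scrambled peptide and 12.5 to 21.8 CPM in wild type. The 8 oligodendrocyte markers summed to 71.2 to 117 CPM with Cdk5i, 74.4 to 104 CPM with scrambled peptide, and wild type had 68.4 to 79.1 CPM, mostly from Mbp. C1qa, C1qb, C1qc, Tmem119, Cldn5 and Olig2 had no count in some libraries. In bulk nuclei, fewer cells of a type and less RNA per cell cannot be told apart, and the part of these other cell types in the results was not tested.

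Most of the genes with a known promoter sequence hold a pyrimidine run near the annotated start, and fewer hold it at the start itself. RefSeq's promoter table (GRCm38.p6) held 55 of the 76 genes. Below are 40-base windows, 20 bases on each side of the annotated start, for the stalk gene Rplp2, the gene with the highest level per length (Rpl7a) and small subunit genes whose values are described further on. Each is written 5′ to 3′ on the gene's strand, and capitals mark the longest run of a C followed by at least 4 pyrimidines.
Rpl7a, chr2:26910787-26910826, plus strand: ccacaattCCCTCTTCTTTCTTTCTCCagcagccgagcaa
Rplp2, chr7:141447631-141447670, plus strand: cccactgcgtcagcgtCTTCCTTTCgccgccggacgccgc
Rps6, chr4:86857348-86857387, minus strand: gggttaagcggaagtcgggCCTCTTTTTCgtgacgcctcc
Rps12, chr10:23787190-23787229, minus strand: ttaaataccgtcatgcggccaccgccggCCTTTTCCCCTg
Rps15a, chr7:118116128-118116167, minus strand: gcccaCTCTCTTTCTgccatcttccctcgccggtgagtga
Rps2, chr17:24720043-24720082, plus strand: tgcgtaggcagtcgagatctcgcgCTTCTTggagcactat
Rps7, chr12:28635934-28635973, minus strand: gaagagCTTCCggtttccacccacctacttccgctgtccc
Rps21, chr2:180257359-180257398, plus strand: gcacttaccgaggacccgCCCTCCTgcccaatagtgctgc
In these windows the run is 19 bases long in Rpl7a, 11 in Rps12, 10 in Rps6 and Rps15a, 9 in Rplp2, 7 in Rps21, 6 in Rps2 and 5 in Rps7. The run begins 1 base before the start in Rps6, 2 before it in Rps21 and 4 in Rplp2, but 12 in Rpl7a, 14 in Rps7 and 15 in Rps15a. In Rps7 and Rps15a it also ends before the start. In Rps2 and Rps12 it begins after the start, at bases 5 and 9 with the start as base 1. The capitals thus mark runs near the annotated start, which are not all TOP motifs at the messenger's first base.

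A C followed by at least 5 pyrimidines lay between 25 bases before and 30 bases after the start in 42 of the 55 genes (76.4%), against 41.7% of the 11495 tested genes with a promoter in the table. A C followed by 4 pyrimidines exactly at the annotated start was found in 12 of 55 (21.8%), against 3.11% of the tested genes. CCGGAA, the core sequence of ETS-family sites, was found on either strand of the 300-base promoters of 32 of 55 genes (58.2%), against 28.3% of tested genes. CTTTCC was found in 28 of 55 (50.9%), against 30.4%, and AAGATGGC, the core of YY1 sites, in 5 of 55 (9.09%), against 4.85%. By subunit, 24 of 32 large and 18 of 23 small subunit promoters had the run near the start. CTTTCC was in 20 of 32 large and 8 of 23 small subunit promoters. A CTTTCC on the gene's strand is itself part of a pyrimidine run, so these features overlap, and matches describe letters and not bound sites.

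The genes are short and were counted over whole gene spans. Their median span was 3266 bp, between 828 bp for Rpl36 and 31449 bp for Rps14, and 72 of 76 spanned under 10 kb, whereas the median tested gene spanned 26034 bp. Exons made up a median of 59.2% of the span. Levels compared between genes are given per kb of gene span. The median level was 1.24 CPM per kb for large and 1.09 CPM per kb for small subunit genes, against 0.548 CPM per kb for all tested genes and 0.647 CPM per kb for 75 genes of the mitochondrial ribosome. Of the 76 genes, 68 lay above the median of tested genes. Across the 76 genes, span had a Spearman correlation of 0.58 with CPM and of -0.33 with CPM per kb, a description over genes that share libraries.

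Within the large subunit, Rpl7a had the highest level, 3.73 CPM per kb, followed by Rplp1 and Rpl41 (2.83 CPM per kb each), Rpl8 (2.67 CPM per kb) and Rpl36 (2.43 CPM per kb). Rpl41 encodes a very small basic peptide, and Rpl8 a protein near the peptidyl transferase centre. In the small subunit, Rps21 led with 2.38 CPM per kb, with Rps12 (1.97), Rps6 (1.67) and Rps9 (1.56) also among the highest. The SD of Rps21 was 0.29 CPM per kb with Cdk5i (n = 3). At the low end of the whole span stood Rpl13a (0.186 CPM per kb), Rps14 (0.207 CPM per kb) and Rps27l (0.233 CPM per kb). Rpl13a had 1.64 CPM per kb over the 364 bp of its span that no other gene on its strand covers, so its place depends on the length used. Rps14 and Rps27l had no such overlap. Exons made up 7.61% of the 31449 bp span of Rps14, however, against 69.7% of the span of Rpl7a. Rps14 had 6.53 CPM, above the small subunit median of 3.56 CPM, so its place also depends on the length used. The proteins enter the ribosome in near-equal numbers. The levels per kb of span ran from 0.207 for Rps14 to 3.73 for Rpl7a, leaving Rpl13a aside. How far this range goes with the share of intron in each span was not tested.

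**Figure D1:**
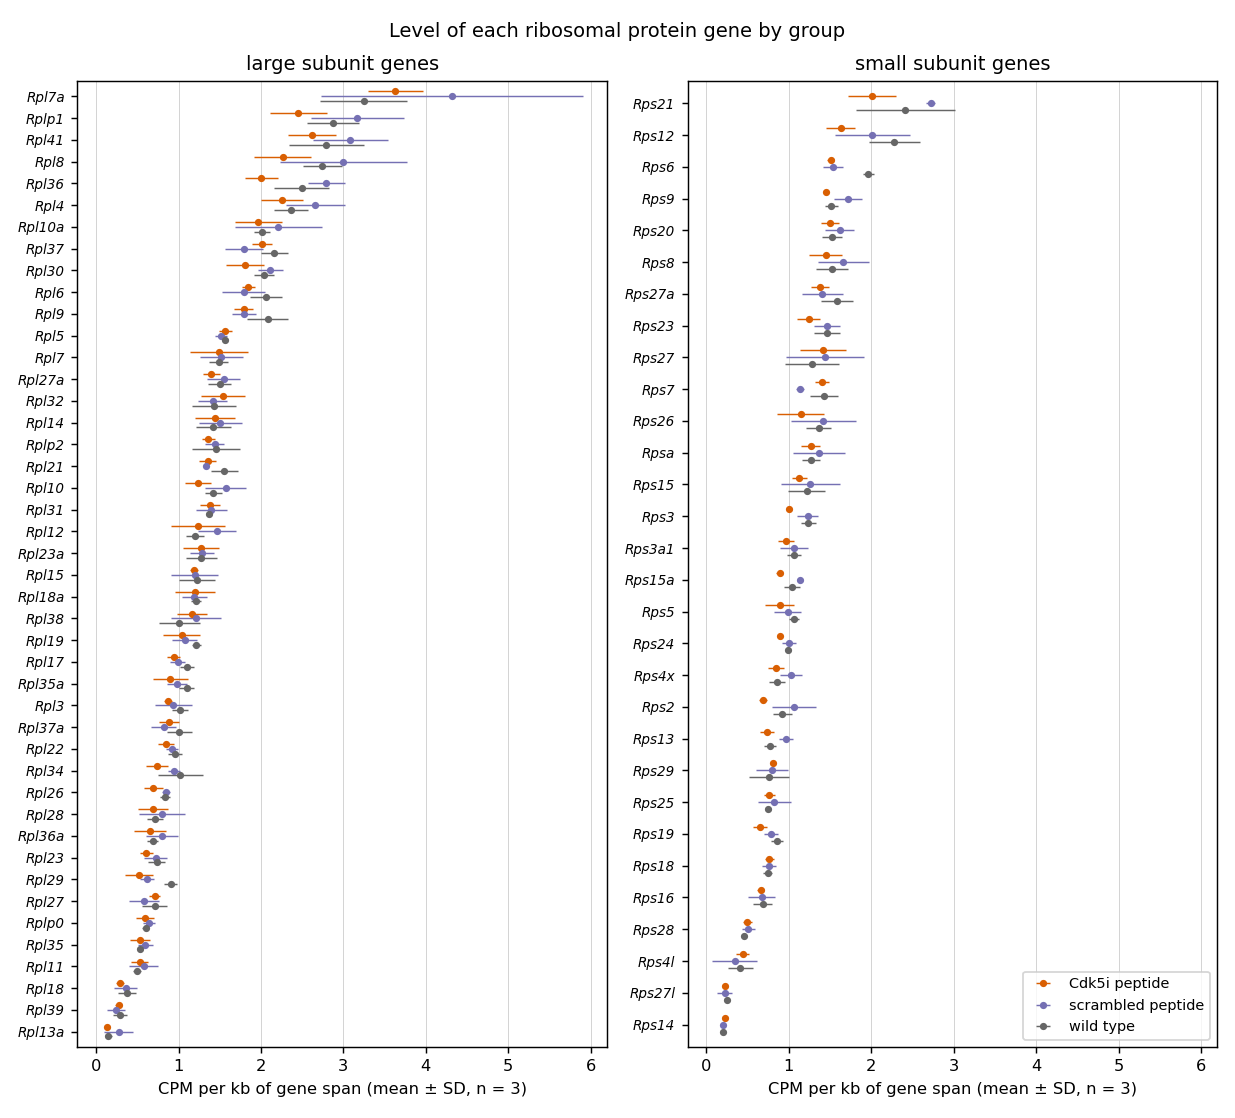
Level of each of 74 genes in CPM per kb of gene span (x axis), as the mean and SD of 3 libraries in Cdk5i peptide, scrambled peptide and wild type, with large subunit genes in the left panel and small subunit genes in the right panel, ordered by level. Rpl7a (3.73 CPM per kb) and Rps21 (2.38 CPM per kb) stand at the top and Rpl13a and Rps14 at the bottom. Rpl13a had 1.64 CPM per kb over its uncovered bases, and exons made up 7.61% of the span of Rps14.

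Some members share bases with other genes. Read pairs that overlap several genes on a strand are left out by default, and 31 of the 76 genes shared bases on their strand with another gene, 29 of them as hosts of snoRNAs, short guide RNAs for modification of ribosomal RNA. The 64 genes nested in members, 57 of them snoRNAs, had 0 counts in all libraries. The members with such overlap included some of the highest counts, such as Rpl3 with 2809, Rpl5 with 2807 and Rpl4 with 2737 in all, covered over 2.86%, 4.21% and 7.69% of their spans. Rpl13a, host of 4 snoRNAs, was overlapped over 88.6% of its span and had 126 counts in all. Rpl13 was wholly covered by Gm20388 and had 0 counts, Rpl24 was covered over 98.7% and had 0, Rpl36al over 92.4% with 12 counts, and Rps10 over 76.9% with 5. The other 9 symbols below the limit of 50 counts were Rps3a2, Rpl32l, Rpl10l and Rps3a3 with 0 counts, Rps12l1 with 2, Rpl6l with 5, Rps27rt with 15, Rpl3l with 20 and Rpl37rt with 24. Just above the limit were Rps4l with 79 counts, Rpl13a, Rpl39 with 163 and Rps27l with 169. Fau, which encodes a small subunit protein fused to a ubiquitin-like one, had 506 counts and was no member by its symbol.

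The question put to the 3 groups was whether the large and small subunit genes moved, together or apart, with the peptide and the genotype. The summed large subunit level was 191, 217 and 211 CPM in the 3 Cdk5i libraries, 217, 257 and 199 CPM in the scrambled libraries and 225, 214 and 223 CPM in wild type. The Cdk5i group overlapped both other groups in this sum. The summed small subunit level was 117, 125 and 122 CPM in the Cdk5i libraries, 132, 151 and 123 CPM in the scrambled libraries and 137, 130 and 134 CPM in wild type. All 3 Cdk5i libraries lay below all 3 wild-type libraries in this sum, and they overlapped the scrambled libraries. Summed over both subunits, the level averaged 328 ± 17.5 CPM with Cdk5i, 359 ± 43.6 CPM with the scrambled peptide and, in wild type, 354 ± 9.28 CPM (SD, n = 3 each). This total was 308, 342 and 333 CPM in the Cdk5i libraries and 362, 344 and 357 CPM in wild type. The groups did not overlap, but replicate 2 of each lay close together, at 342 and 344 CPM.

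The ratio of the large over the small subunit sum was 1.64, 1.74 and 1.73 with Cdk5i, 1.64, 1.70 and 1.61 with scrambled peptide and 1.64, 1.65 and 1.67 in wild type. The ranges of the 3 groups overlapped. The mean ratio was 1.70 ± 0.0576 with Cdk5i, 1.65 ± 0.0466 with scrambled peptide and 1.66 ± 0.0147 in wild type (SD, n = 3 each), and these means differed by less than the SD of the Cdk5i group.

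**Figure D2:**
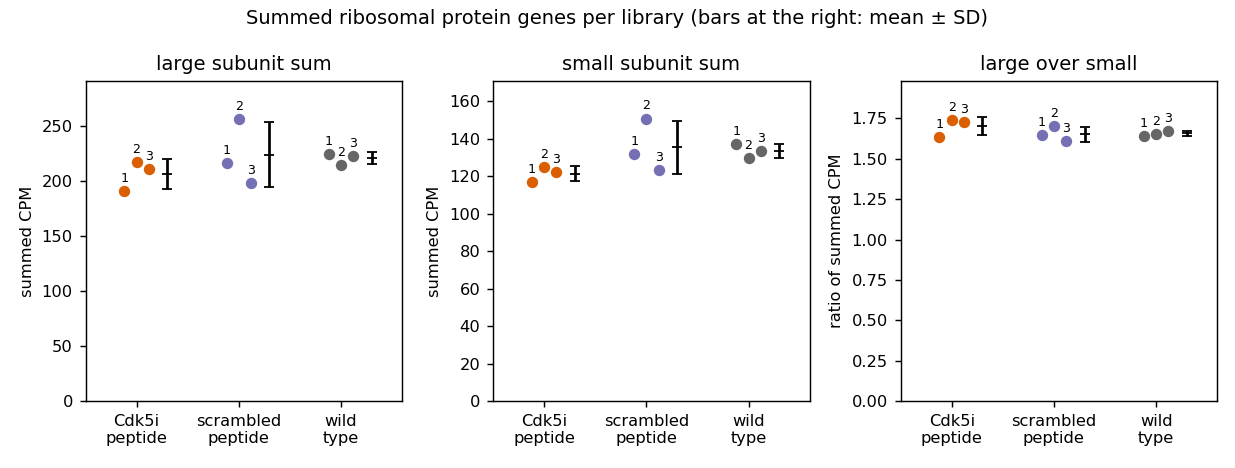
Summed CPM of the 44 large subunit genes (left), the 32 small subunit genes (middle) and the ratio of both sums (right) for each library, with the replicate number above each point and the mean ± SD of 3 libraries beside it. Scrambled replicate 2 is the highest in both sums (257 and 151 CPM), Cdk5i replicate 1 the lowest (191 and 117 CPM), and the ratios lie between 1.61 and 1.74.

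Cdk5i peptide was compared with scrambled peptide to see what the peptide did in transgenic mice. No ribosomal protein gene passed an adjusted p of 0.05 in edgeR's quasi-likelihood test with Benjamini-Hochberg adjustment, while 2 of all 16046 genes did (0.0125%). DESeq2 and limma-voom also called 0 of the 76. At an unadjusted p under 0.05, edgeR had 9 of the 76 genes, 8 lower and 1 higher, against 5.33% of all genes, 2.46% lower and 2.87% higher. DESeq2 had 3 and limma-voom 8 of the 76 at that level. The share over all genes was not computed for these tools, so their counts have no background beside them. The log2 fold change was negative in 60 of the 76 genes, 35 of 44 large and 25 of 32 small, against 52.8% of all genes. Its median was -0.12 for large and -0.14 for small subunit genes, against -0.01 for all tested genes, and 67 of the 76 intervals (95%) spanned 0. Of all tested genes under 10 kb, the class that holds 72 of the 76, 65.3% were negative, with a median of -0.08.

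Rps15a, on chromosome 7 (GRCm38, 118104372 to 118116188), encodes a protein of the small subunit. It had 10.1, 11.1 and 10.2 CPM with Cdk5i, against 13.1, 13.9 and 13.1 CPM with scrambled peptide. Every Cdk5i library was lower than every scrambled one. The log2 fold change was -0.35 ± 0.10 (SE), with an interval of -0.56 to -0.14 and an adjusted p of 0.667 in edgeR's test, the lowest among the 76 genes. Wild type had 11.5, 11.7 and 13.6 CPM, also above every Cdk5i library.

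Rps2, on chromosome 17 (24718116 to 24721929), encodes a protein at the messenger's entry channel. It had 2.81, 2.51 and 2.52 CPM with Cdk5i, against 3.97, 5.09 and 3.05 CPM with scrambled peptide. The groups did not overlap, though scrambled replicate 3 lay close to the Cdk5i libraries. The log2 fold change was -0.62 ± 0.20 (SE) and the adjusted p 0.768 in edgeR's test. Wild type lay at 3.22, 3.28 and 4.04 CPM.

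Rps7 was the 1 gene of the 9 that was higher with the peptide. It lies on chromosome 12 (28630854 to 28635953), and its protein is known to bind Mdm2, the ubiquitin ligase of p53. It had 7.01, 7.66 and 6.80 CPM with Cdk5i, against 6.02, 5.79 and 5.51 CPM with scrambled peptide. The groups did not overlap, the log2 fold change was 0.31 ± 0.12 (SE) and the adjusted p 0.908 in edgeR's test. Wild type had 8.06, 6.37 and 7.45 CPM, and its range held every value of the Cdk5i group.

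The small subunit genes at an unadjusted p under 0.05 also included Rps3 and Rps21. Rps3, whose protein lies at the messenger's entry, had 5.76, 5.91 and 5.88 CPM with Cdk5i, against 7.60, 7.59 and 6.31 CPM with scrambled peptide. Rps21 had 2.5, 1.94 and 1.99 CPM with Cdk5i, against 2.97, 2.9 and 2.86 CPM with scrambled peptide. In both genes the groups did not overlap, and the log2 fold changes were -0.29 for Rps3 and -0.44 for Rps21, with adjusted p of 0.922 in edgeR's test.

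In the large subunit, Rpl8, Rpl36 and Rpl13a had an unadjusted p under 0.05. Rpl36 had 1.47, 1.79 and 1.72 CPM with Cdk5i, against 2.47, 2.37 and 2.10 CPM with scrambled peptide, with no overlap and a log2 fold change of -0.47 ± 0.19 (SE). Rpl8 had 4.51, 5.94 and 4.74 CPM with Cdk5i, against 5.78, 8.69 and 5.63 CPM with scrambled peptide. Its groups overlapped, and scrambled replicate 2 stood apart. Rpl13a had 0.491, 0.419 and 0.382 CPM with Cdk5i, against 0.578, 1.54 and 0.516 CPM with scrambled peptide, and its log2 fold change of -1.0 ± 0.45 (SE) came with 1 scrambled library far above all others.

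Genes of the stalk, the flexible arm that recruits elongation factors, did not all look alike. Rplp1 had 2.59, 3.39 and 3.28 CPM with Cdk5i, against 3.78, 4.78 and 3.41 CPM with scrambled peptide, without overlap, at a log2 fold change of -0.36 ± 0.18 (SE). Rplp0, the stalk's base, had a log2 fold change of -0.12 ± 0.19 and Rplp2 of -0.08 ± 0.15, and their groups overlapped. Other genes with the most negative or positive values were Rps13 (log2 fold change -0.39), Rpl27 (0.29), Rpl37 (0.16), Rpl32 (0.12) and Rps14 (0.11), none past the threshold. Rpl5 and Rpl11, whose proteins form a particle with 5S ribosomal RNA that binds Mdm2, had log2 fold changes of 0.05 and -0.12. Rpl10, which joins the large subunit late, had -0.34, Rpl3, near the catalytic centre, -0.10, and Rps24 -0.16.

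Over the 76 genes, the groups did not overlap in 13 genes lower and 1 higher with Cdk5i, against 5.38% and 4.95% of all genes. The difference between the peptides rested on scrambled replicate 2. Without that library the median log2 fold change of the 76 genes was -0.01 with 39 negative, without Cdk5i replicate 1 it was -0.06 with 52 negative, and without both it was 0.04 with 31 negative.

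Scrambled peptide was compared with wild type, a contrast of transgenic and injected mice with wild-type mice. No ribosomal protein gene passed the threshold in edgeR's test, and 13 of all genes did (0.0810%). DESeq2 and limma-voom also called 0 of the 76. At an unadjusted p under 0.05, edgeR had 2 of the 76, both lower with scrambled peptide, against 10.1% of all genes and 5.20% lower. DESeq2 had 2 and limma-voom 3, with no share over all genes computed for these tools. The log2 fold change was negative in 32 of the 76, 21 of 44 large and 11 of 32 small, against 48.3% of all genes, and the median was 0.01 for large and 0.05 for small subunit genes. Of all tested genes under 10 kb, 43.7% were negative, with a median of 0.04. Without scrambled replicate 2 the median over the 76 was -0.07, with 52 negative, against 0.03 with all libraries.

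Rps6, the small subunit protein that S6 kinases phosphorylate downstream of mTOR, was 1 of the 2 genes. It lies on chromosome 4 (86854660 to 86857412). It had 4.2, 4.56 and 3.89 CPM with scrambled peptide, against 5.26, 5.34 and 5.63 CPM in wild type. The groups did not overlap, and the log2 fold change was -0.36 ± 0.13 (SE) with an interval of -0.64 to -0.08 and an adjusted p of 0.389 in edgeR's test. The Cdk5i libraries, at 4.06, 4.11 and 4.28 CPM, lay within the range of the scrambled libraries, with a log2 fold change between the peptides of -0.02 ± 0.13 (SE).

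Rps7 was the other. Its values of 6.02, 5.79 and 5.51 CPM with scrambled peptide all lay below the 8.06, 6.37 and 7.45 CPM of wild type, at a log2 fold change of -0.34 ± 0.13 (SE) and an adjusted p of 0.401 in edgeR's test. Rps6 and Rps7 thus both had lower values with scrambled peptide than in wild type, and they parted with Cdk5i, where Rps6 stayed at the scrambled level and Rps7 had values within the wild-type range. The comparisons share the scrambled libraries, and this pattern was read off after the values were seen.

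Other large values in this contrast had wide error. Rpl7a had 13.2, 13.5 and 6.35 CPM with scrambled peptide, against 7.73, 9.83 and 7.31 CPM in wild type, and scrambled replicate 3 was the lowest of all 9. The log2 fold change was 0.41 ± 0.26 (SE). Rps13 was the 1 gene with all scrambled libraries above wild type, with 2.39, 2.85 and 2.54 CPM against 1.85, 2.25 and 2.13 CPM, at a log2 fold change of 0.32 ± 0.19 (SE). Rpl12, Rpl38 and Rps4x had log2 fold changes of 0.29, 0.26 and 0.26, and Rpl27, Rpl37a and Rpl37 of -0.29, -0.29 and -0.27. Over the 76 genes, the groups did not overlap in 5 lower and 1 higher, against 8.03% and 8.26% of all genes.

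Cdk5i peptide was also set against wild type, a contrast in which the transgene, the injections and the Cdk5i peptide cannot be told apart. No ribosomal protein gene passed the threshold in edgeR's test, and 12 of all genes did (0.0748%). DESeq2 and limma-voom also called 0 of the 76. At an unadjusted p under 0.05, edgeR had 8 of the 76, all lower with Cdk5i, against 11.0% of all genes, 5.30% lower and 5.73% higher. DESeq2 had 3 and limma-voom 8, again with no share over all genes computed. The log2 fold change was negative in 58 of the 76, 34 of 44 large and 24 of 32 small, against 51.2% of all genes. Its median was -0.10 for large and -0.09 for small subunit genes, against -0.01 for all tested genes. Of all tested genes under 10 kb, 57.0% were negative, with a median of -0.04.

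Rpl29, a large subunit gene on chromosome 9 (106429454 to 106431568), had the lowest unadjusted p, 0.0099. It had 0.759, 1.49 and 1.07 CPM with Cdk5i, against 1.75, 1.92 and 2.09 CPM in wild type. The groups did not overlap, and the log2 fold change was -0.78 ± 0.26 (SE) with an adjusted p of 0.314 in edgeR's test. The scrambled libraries, at 1.47, 1.36 and 1.11 CPM, also lay below wild type.

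In the small subunit, Rps12 had 3.66, 3.58 and 2.98 CPM with Cdk5i, against 5.36, 4.07 and 4.86 CPM in wild type, at a log2 fold change of -0.48 ± 0.19 (SE). Rps19, the gene most often mutated in Diamond-Blackfan anaemia, had 3.04, 4.0 and 3.59 CPM with Cdk5i, against 5.03, 4.68 and 4.27 CPM in wild type, at a log2 fold change of -0.39 ± 0.16 (SE). Both genes had no overlap between these groups. Rps6 had a log2 fold change of -0.38 ± 0.13, Rps3 of -0.31 ± 0.12 and Rps15a of -0.22 ± 0.10 (SE), again without overlap. Rpl34 had 2.19, 2.55 and 3.13 CPM with Cdk5i and 2.99, 3.18 and 4.77 CPM in wild type, and here the groups overlapped.

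Of the 76 genes, 13 had all Cdk5i libraries below all wild-type libraries and 0 had them above, against 8.22% and 8.03% of all genes. Rps2 was 1 of the 13, at a log2 fold change of -0.43 ± 0.20 (SE). The most positive values included 0.21 for Rpl38, 0.17 for Rps14, 0.16 for Rpl7a and 0.11 for Rps28, all with overlapping groups. With any 1 library left out, the median over the 76 genes stayed between -0.14 and -0.09, with 48 to 61 negative values.

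**Figure D3:**
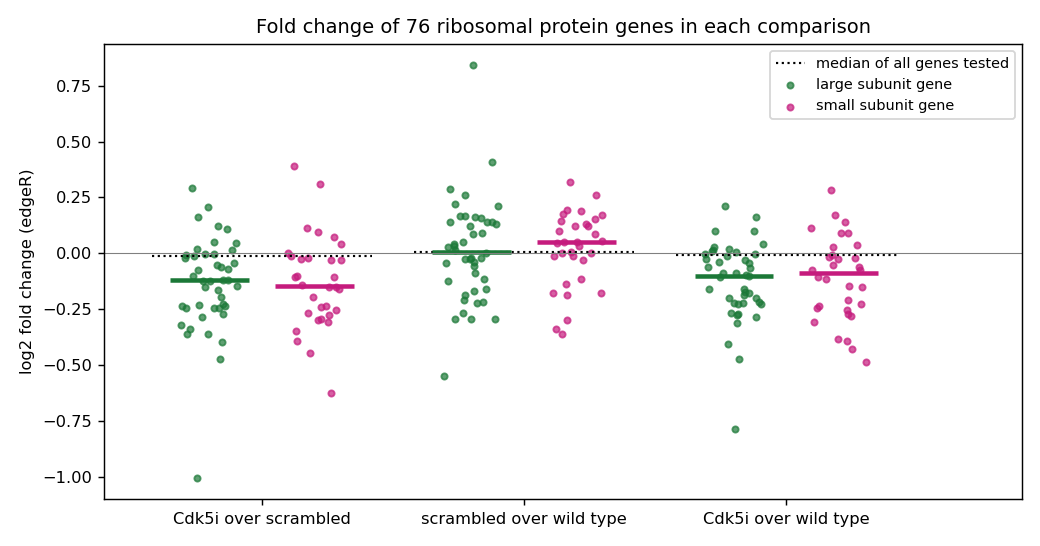
Log2 fold change (edgeR) of each of the 76 genes in the 3 comparisons, large and small subunit genes side by side, with a thick line at each subunit's median and a dotted line at the median of all tested genes. The medians of both subunits lie close together in each comparison, at -0.12 and -0.14, at 0.01 and 0.05, and at -0.10 and -0.09.

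Library by library, the genes deviated together. Measured as the log2 of CPM plus 0.5 against the gene's own mean over the 9 libraries, the median deviation of the 76 genes was -0.15, -0.01 and -0.08 in the Cdk5i libraries, 0.01, 0.21 and -0.09 in the scrambled libraries and 0.05, -0.01 and 0.05 in wild type. In scrambled replicate 2, 71 of the 76 genes lay above their own mean, and 36 had their highest value there. In Cdk5i replicate 1, 15 lay above their mean and 31 had their lowest value there, while scrambled replicate 3 held the lowest value of 17. Large and small subunit genes shared this, with medians of 0.20 and 0.22 in scrambled replicate 2 and of -0.19 and -0.12 in Cdk5i replicate 1.

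**Figure D4:**
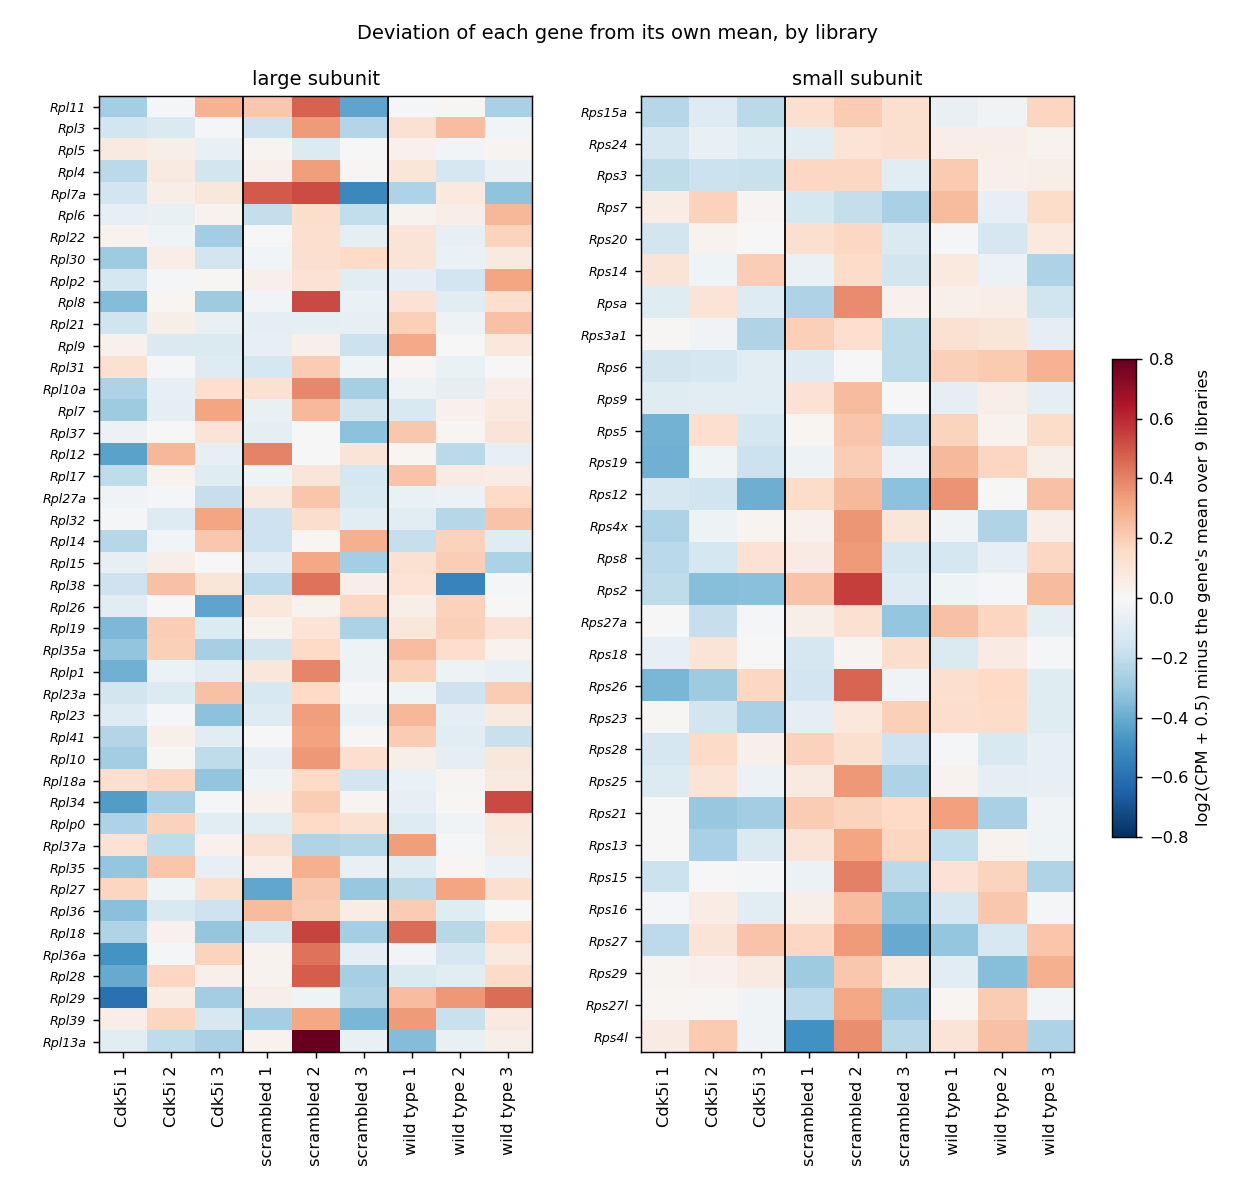
Deviation, for 74 genes, of each gene's log2(CPM + 0.5) from its own mean over the 9 libraries, with genes in rows (large subunit left, small subunit right, ordered by mean CPM) and libraries in columns, Cdk5i peptide first and wild type last. Scrambled replicate 2 is the reddest column, with 71 of all 76 genes above their own mean, and Cdk5i replicate 1 the bluest, with 15 of all 76.

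Other short genes deviated the same way. The 3827 other tested genes under 10 kb had a median deviation of 0.11 in scrambled replicate 2 and of -0.07 in Cdk5i replicate 1, whereas the 12143 longer ones had -0.01 and 0.00. The share of counts from mitochondrially encoded genes was 0.137% in scrambled replicate 2, the highest of the 9 libraries, and 0.0793% in Cdk5i replicate 1, the lowest. Cdk5i replicates 2 and 3 had 0.108% and 0.130%, and scrambled replicates 1 and 3 had 0.135% and 0.0989%. Wild type had 0.117%, 0.0922% and 0.127%. Scrambled replicate 1 was close to replicate 2 in this share, at a median deviation of the 76 genes of 0.01. How this share relates to the deviations was not tested. Between Cdk5i and scrambled peptide, the median log2 fold change of all tested genes was -0.15 under 2 kb, -0.08 from 4 to 6 kb, -0.01 from 20 to 50 kb and 0.09 above 200 kb. With a gene-length offset in the same fit, the median of the 76 genes was -0.05 for Cdk5i against scrambled peptide (45 negative), -0.01 for scrambled peptide over wild type (43 negative) and -0.04 for Cdk5i over wild type (46 negative).

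**Figure D5:**
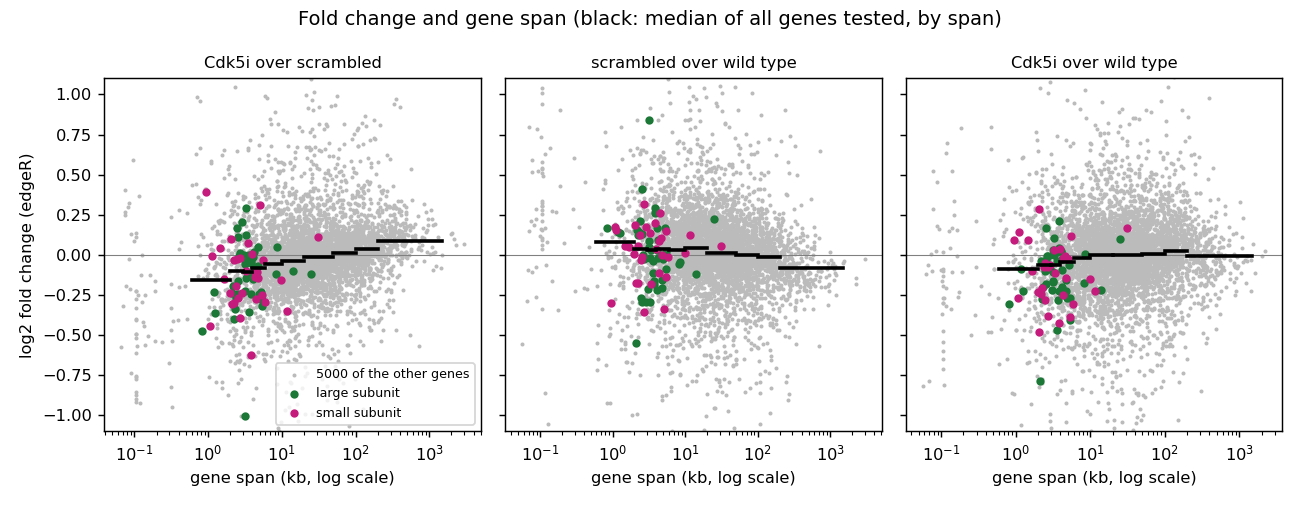
Log2 fold change (edgeR) against gene span in kb on a log axis for each comparison, with large and small subunit genes coloured, a random 5000 of the other tested genes in grey and black bars at the median of all tested genes per span class. Values beyond 1.1 in either direction are not drawn. For Cdk5i over scrambled peptide, the medians lie at -0.15 for the shortest genes and at 0.09 for the longest, and most ribosomal protein genes lie at the short end.

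Several members have near-copies, whose reads the counting may split or drop. Rps4x on chromosome X had 0.909 CPM per kb and its copy Rps4l 0.398 CPM per kb. Rps27 had 1.38 CPM per kb and Rps27l, known as a target of p53, 0.233 CPM per kb, and their log2 fold changes between the peptides were -0.01 ± 0.29 and 0.07 ± 0.32 (SE). Rpl36a had 0.714 CPM per kb, and Rpl26 had 0.794 CPM per kb. Annotated pseudogenes with the suffix ps summed to 106 to 161 counts per library. Rpsa, which encodes a small subunit protein also known as the laminin receptor precursor, had 126, 172 and 146 counts with Cdk5i, 130, 182 and 156 with scrambled peptide and 131, 134 and 118 in wild type. Its pseudogene Lamr1-ps1, which lies on chromosome 2 (131904086 to 131904959) 5.0 kb from the prion gene Prnp, had 57, 60 and 52 counts with Cdk5i and 74, 73 and 50 with scrambled peptide, and had 0 in each wild-type library. All 6 transgenic libraries thus held counts that the wild-type libraries lacked, and whether such reads also entered the count of Rpsa was not tested.

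Other genes of the translation machinery were read from the same fit, and 0 passed the threshold in any list or comparison in edgeR's test, with DESeq2 or with limma-voom. The 17 other genes with a TOP messenger included Fau, Hnrnpa1, Nap1l1, Npm1 and Tpt1 beside translation factors. Of these 17, 15 had a negative log2 fold change for Cdk5i against scrambled peptide, against 52.8% of all genes. For scrambled peptide over wild type 11 did, against 48.3%, and for Cdk5i over wild type 14 did, against 51.2%. The medians of the 17 were -0.07, -0.03 and -0.07. None of the 17 had an unadjusted p under 0.05 in edgeR's test in the first comparison, and 2 did in each of the others. The shares over all genes were 5.33%, 10.1% and 11.0%. Eef1a1, the factor that brings transfer RNA to the ribosome, averaged 16.8 CPM with Cdk5i, 19.4 CPM with scrambled peptide, and wild type had 20.8 CPM. Its log2 fold changes were -0.20 for the peptides and -0.31 for Cdk5i against wild type. Fau had -0.28 and -0.32 in these comparisons, while Eef2, the translocation factor, had 0.21 for scrambled peptide against wild type.

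Of 75 genes of the mitochondrial ribosome, 50 had negative values for Cdk5i against scrambled peptide, 39 for scrambled peptide over wild type and 53 for Cdk5i over wild type, with medians of -0.05, -0.02 and -0.06. In the same order of comparisons, 2, 7 and 3 of them had an unadjusted p under 0.05 in edgeR's test. The shares over all genes tested were 5.33%, 10.1% and 11.0% for such a p, and 52.8%, 48.3% and 51.2% for negative values. The median span of the 75 genes was 7894 bp. Of all tested genes from 6 to 10 kb, 62.8%, 44.0% and 53.8% were negative, with medians of -0.05, 0.03 and -0.02. Mrps14 had a log2 fold change of 0.62 for Cdk5i against scrambled peptide and of -0.80 for scrambled peptide against wild type, and Mrpl14 had -0.42 and 0.44. Of 33 ribosome biogenesis genes, 20, 12 and 17 were negative, and 1, 3 and 1 had an unadjusted p under 0.05. Bop1, which is needed to process large subunit RNA, had 0.35 for scrambled peptide and 0.31 for Cdk5i, both against wild type.

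Over all genes tested, 52.8%, 48.3% and 51.2% were negative, and 5.33%, 10.1% and 11.0% had an unadjusted p under 0.05 in edgeR's test. Of 22 genes that control ribosomal protein synthesis, such as mTOR and its partners, 11, 7 and 6 were negative, and 1, 0 and 0 had an unadjusted p under 0.05. That 1 gene was Rps6ka2, a kinase of the RSK family, with a log2 fold change of 0.18 for Cdk5i against scrambled peptide. Of 51 initiation factors, 36, 23 and 28 were negative, and 2, 3 and 6 had an unadjusted p under 0.05. Eif2b2, a subunit of the exchange factor for eIF2, had 0.41 for Cdk5i against scrambled peptide, and Eif3k 0.53 for scrambled peptide against wild type. Of 10 mitochondrially encoded genes, 10, 2 and 8 were negative, with medians of -0.24, 0.07 and -0.08, and 2, 2 and 0 had an unadjusted p under 0.05.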

How the data were processed

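NeuN-positive cortical nuclei gave RNA by a kit for fixed tissue and libraries by a stranded total RNA kit, read as 40-base pairs, per the labels. The authors deposited whole-number counts per gene, which featureCounts 2.0.0 made over whole genes, introns included, from reverse-stranded read pairs and, per the file headers, Ensembl release 102. Named in the submitters' processing notes are STAR 2.7.9a, Subread 2.0.0, DESeq2 1.36.0 and the build GRCm38. Totals ran from 21584712 to 26715938 counts.

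Groups came from the sample titles. Counts of all genes were fitted in edgeR 4.0.16 (R 4.3.3), with filterByExpr, TMM, a robust quasi-likelihood model of 3 groups and Benjamini-Hochberg adjustment at 0.05 over 16046 genes. A standard error is the fold change (log2) over the square root of the F statistic. The script was tested on simulated data. Alternatives were DESeq2 1.42.0, limma 3.58.1 (voom), other scalings and filters, a gene-length offset, a replicate block and each library left out. No library was a copy of another of its group, with a chi-square per gene of 8.19 to 24.3 between them. Ribosomal protein genes and lists were chosen with earlier results of these data known. Named were the genes with the 5 most positive and 5 most negative values per comparison (mean of at least 50 counts), the highest levels, the stalk genes, Rps6 and genes with paralogs. Genes at an unadjusted p under 0.05, and Rpl36, Rpl29, Rpl34, Rpl13a, Rps3 and Rps15a in those contrasts, were added after their values were seen. Promoter letters are from RefSeq (GRCm38.p6), and 21 genes had no match there. Values of 2 members are not reported singly here and not drawn by name, and every count and sum over the 76 includes them.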

Additional observations from a re-analysis of the deposited data

How the results depend on the processing

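No ribosomal protein gene passed the threshold under any alternative run. For 39 named genes, 1781 of 1893 alternative log2 fold changes kept their sign, and the smallest adjusted p was 0.159. Counts of all genes called moved most. Without a low-count filter they were 159 for Cdk5i over scrambled peptide, 318 for scrambled peptide over wild type and 408 for Cdk5i over wild type. With DESeq2 they were 27, 75 and 111 in the same order of comparisons. For scrambled peptide and for Cdk5i against wild type they were 5 and 1 at a mean count of at least 50, and for Cdk5i against wild type they were 4 with limma-voom and 2 with the 2 groups alone. With each library left out in turn, they ranged from 2 to 18, from 2 to 17 and from 2 to 7.

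With the replicate number as a block, 2 genes were called in each comparison, and also with the gene-length offset added for both comparisons with wild type. Under the block, the median of the ribosomal protein genes was -0.13, 0.03 and -0.10 in the 3 comparisons. Deviations of same-numbered libraries correlated between -0.31 and 0.17. The labels do not state that the numbers pair the libraries, and these correlations cannot settle whether they do.

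With each library left out, the median of the ribosomal protein genes ranged from -0.20 to -0.013 for Cdk5i against scrambled peptide (39 to 63 negative), from -0.07 to 0.08 for scrambled peptide over wild type (28 to 52 negative) and from -0.14 to -0.09 for Cdk5i over wild type (48 to 61 negative). For large subunit genes these ranges were -0.17 to -0.0056, -0.10 to 0.061 and -0.17 to -0.09, and for small subunit genes -0.23 to -0.026, -0.05 to 0.12 and -0.15 to -0.08. Leaving out both Cdk5i replicate 1 and scrambled replicate 2, chosen after seeing the data, gave 31 negative and medians of 0.039 for all, 0.039 for large and 0.046 for small subunit genes. The cause was not tested.

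Without the top member of each subunit, by construction lower, the sums were 208 CPM (large, wild type), 111 CPM (small, Cdk5i) and 121 CPM (small, wild type), and the log2 ratio of large over small was 0.78 in the scrambled group and 0.78 in wild type. A typical ribosomal protein gene had a standard error of 0.18 on the log2 scale, which limits what these depths could show.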
